A study of Rattus norvegicus with 23 samples.

Results

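The growth hormone and insulin-like growth factor (IGF) axis was followed in rat liver through 9 genes: Ghr, Igf1, Igfals, Igfbp1, Igfbp2, Igfbp3, Igfbp4, Socs2 and Socs3. They were taken by symbol from a table of read counts with 28913 rows, and all 9 were among the 15079 genes that passed the filter on low counts. The table holds RNA-seq libraries of whole liver from Sprague Dawley rats, prepared as models of portosinusoidal vascular disease, in which small portal and sinusoidal vessels of the liver are damaged. The LPS group has 7 libraries, whose rats received lipopolysaccharide (a component of bacterial outer membranes, 1 mg/kg per dose, 2 doses each week for 8 weeks) by way of a portal vein catheter that had been placed surgically under isoflurane. The Selfox group has 10 libraries, from rats kept for 8 weeks on a diet enriched in selenium and given weekly intravenous chemotherapy, which combined oxaliplatin (3 mg/kg), 5-FU, the pyrimidine analogue fluorouracil (25 mg/kg), and folinic acid (45 mg/kg). The Control group has 6 libraries, from rats with no treatment. The labels give the Control rats no surgery or catheter, so in the comparison of LPS with Control the operation and LPS cannot be told apart. Surgery is stated for the LPS group only, so its effect cannot be separated in Selfox with LPS either. All Selfox rats received both the diet and the chemotherapy, so the effects of these cannot be told apart. The labels give no sex, age, batch or hour of sampling. They do not say that each library is a different rat, so the p-values measure the spread between libraries.

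Growth hormone from the pituitary binds its receptor on hepatocytes and activates the kinase Jak2 and the transcription factor Stat5b, which switch on Igf1, Igfals and Socs2. Most Igf1 in blood is made by the liver and circulates bound to Igfbp3 and to the acid labile subunit, the product of Igfals, which keeps it in the circulation. Other binding proteins, among them Igfbp1, Igfbp2 and Igfbp4, carry Igf1 in smaller complexes and can limit its action, and SOCS proteins feed back on the receptor kinases.

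Library totals were 70372293 to 79249765 counts in LPS, 65113145 to 74809989 in Selfox and 31889957 to 53806710 in Control, so Control libraries were the shallowest. Igfbp2, the member with the fewest counts, had 34 to 868 in a library. The summed level of 8 hepatocyte markers was 113800 to 185000 CPM (counts scaled to 1000000 per library) in LPS, 127100 to 155000 CPM in Selfox and 150800 to 229000 CPM in Control. Kdm5d and Eif2s3y, transcripts of the Y chromosome, had at least 759 and 1406 counts in all 23 libraries. The clock gene Dbp was above its counterpart Arntl in 5 libraries, LPS 5, LPS 6, LPS 7, Selfox 8 and Control 55, and below it in the other 18; in Selfox 8 the margin was narrow (3.3523 against 3.3481 log2 CPM). These 5 are called the late-clock libraries, and values without them are given where leaving them out changes the call of a member.

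With LPS, 3 of the 9 members passed the test against Control, where 14.7% of all genes tested passed, 7.71% higher and 6.99% lower. Ghr was higher, and Igf1 and Igfals were lower. With Selfox, 5 of the 9 passed against Control, where 29.1% of all genes passed, 14.2% higher and 14.9% lower. Ghr was higher, and Igfals, Igfbp3, Igfbp4 and Socs2 were lower. Between the models 3 of the 9 passed, where 14.5% of all genes did, 6.86% higher and 7.64% lower: Igf1 was higher in Selfox than in LPS, and Igfbp2 and Igfbp3 were lower. The median log2 fold change of the 9 members was -0.11 between LPS and Control, where that of all genes tested was 0.0058. It was -0.23 between Selfox and Control, where that of all genes was 0.0115, and 0.14 between Selfox and LPS, where that of all genes was 0.0016. Both models share the Control libraries, so their results against Control are not independent of each other. Adjusted p-values are from edgeR's quasi-likelihood test with Benjamini-Hochberg adjustment over all genes tested, and a change was called at an adjusted p under 0.05.

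**Figure D1:**
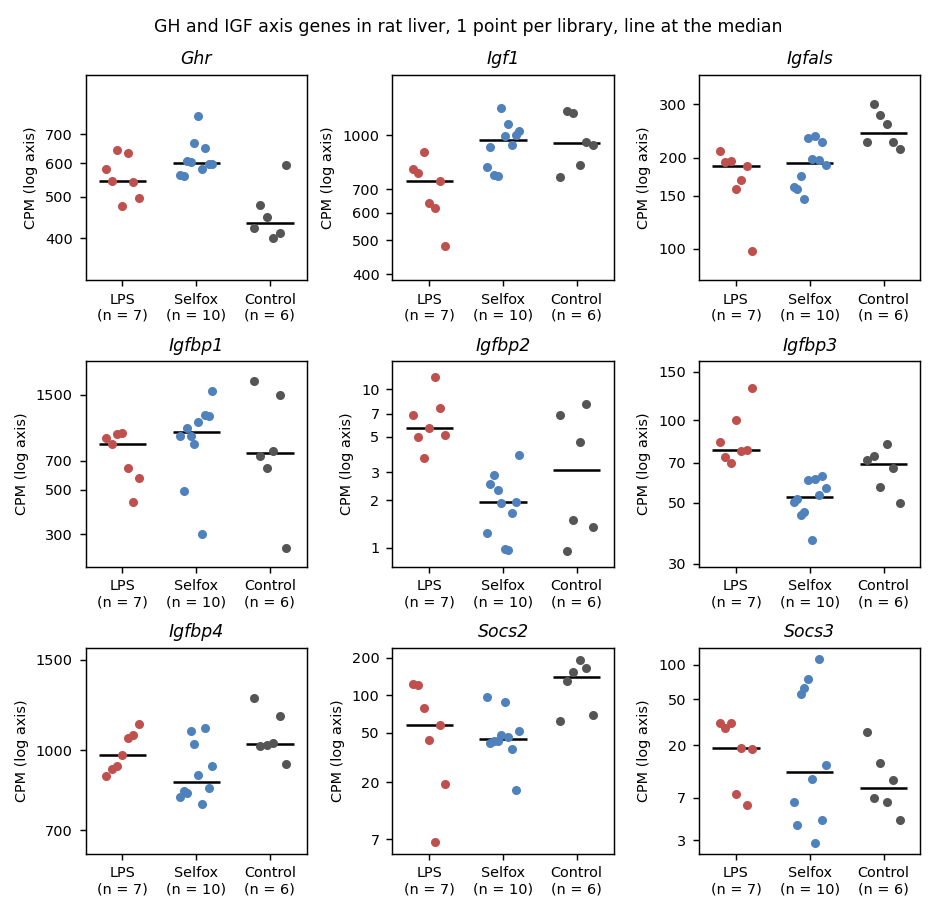
Level of each of the 9 members in every library, in CPM on log axes, with LPS, Selfox and Control side by side in each panel; each point is a library and the bar is the group median. Igfals lies lower in all 7 LPS libraries than in any Control library, and Igfbp3 lies lower in all 10 Selfox libraries than in any LPS library.

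Ghr, the growth hormone receptor, was higher in Selfox livers. The lowest, median and highest Ghr levels were 477, 544 and 645 CPM in LPS, 558.5, 600.3 and 773 CPM in Selfox and 400, 436 and 592.5 CPM in Control. All 10 Selfox libraries were above the Control median and 7 of 10 were above every Control library; the highest Control value belonged to Control 55, a late-clock library, and the other 5 Control libraries lay at 479 CPM or below. Ghr rose 1.35-fold in Selfox over Control (log2 fold change 0.43 ± 0.09 SE, adjusted p = 0.00103) and kept its call in each of 16 fits that left out a library and under 10 other settings. It rose 1.22-fold in LPS over Control (0.29 ± 0.10, adjusted p = 0.0473), a call lost in 10 of 13 fits that left out a library, with adjusted p up to 0.130. Selfox differed from LPS by 0.15 ± 0.09 on the log2 scale, which did not pass (adjusted p = 0.266).

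Igf1, the hormone the liver releases in response to growth hormone, was lower in LPS livers than in either other group. From lowest through median to highest, Igf1 stood at 481, 739 and 892 CPM in LPS, 762, 965 and 1192 CPM in Selfox and 759, 946 and 1168 CPM in Control. No LPS library reached the Control median and 4 of 7 were below every Control library, while Selfox and Control covered nearly the same range. Igf1 fell in LPS to 0.732 of its Control level (log2 fold change -0.45 ± 0.13, adjusted p = 0.0247). Leaving out Control 41 or Control 46 ended that call, with adjusted p up to 0.0670, as did leaving out the late-clock libraries (-0.33, adjusted p = 0.15). Selfox with Control gave a fold of 0.982 with an approximate 95% interval of 0.830 to 1.16 (adjusted p = 0.897). Set against LPS, Igf1 rose 1.34-fold in Selfox (0.42 ± 0.12, adjusted p = 0.0177), with 7 of 10 Selfox libraries above every LPS library. When the late-clock libraries were left out, the difference was 0.29 (adjusted p = 0.180).

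Igfals, which encodes the acid labile subunit, was lower in both models than in Control. Igfals had lowest, median and highest levels of 98.7, 188 and 211 CPM in LPS, 146, 192.5 and 236 CPM in Selfox and 214.5, 241.5 and 301 CPM in Control. All 7 LPS libraries lay below every Control library; 3.64% of all genes tested had LPS and Control groups that did not overlap, 1.83% with LPS higher and 1.81% with LPS lower. Igfals fell in LPS to 0.693 of its Control level (log2 fold change -0.53 ± 0.14, adjusted p = 0.0153), a call kept in all 13 fits that left out a library and under 10 other settings, with adjusted p up to 0.0433. In Selfox 7 of 10 libraries were below every Control library, and Igfals fell to 0.766 of Control (-0.38 ± 0.13, adjusted p = 0.0298). The Selfox call was lost without Selfox 4, Control 41, Control 46 or Control 49, with adjusted p up to 0.0996. Selfox with LPS gave 0.14 ± 0.13 (adjusted p = 0.495). Igf1 differed between the models past the threshold and Igfals did not, and whether the effects on these genes differ from each other was not tested.

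The start regions of Igf1 and Igfals are shown because these are the growth hormone targets of the axis that were lower in LPS. They are RefSeq promoters on GRCr8, each 250 bases before and 50 bases after the start of transcription; 8 of the 9 members had such an entry. A search on both strands used the STAT5-type motif TTCNNNGAA and the insulin response element core CAAAACA, which is bound by FoxO factors, and a match is marked by capitals. TTCNNNGAA was in none of the 8 windows of the members and in 8.87% of 33469 promoters, and known Stat5b elements of Igf1 lie far from its start. CAAAACA was in 6.28% of promoters, and in Igf1 it starts at base -67. Igf1 is the window chr7:24172282-24172581 on the plus strand, and Igfals is chr10:14403600-14403899 on the plus strand.
Igf1: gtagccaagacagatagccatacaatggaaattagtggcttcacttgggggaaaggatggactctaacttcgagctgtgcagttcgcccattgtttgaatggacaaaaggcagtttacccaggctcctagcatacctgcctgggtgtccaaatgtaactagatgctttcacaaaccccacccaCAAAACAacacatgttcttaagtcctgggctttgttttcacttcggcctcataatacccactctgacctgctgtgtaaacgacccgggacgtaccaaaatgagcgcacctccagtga
Igfals: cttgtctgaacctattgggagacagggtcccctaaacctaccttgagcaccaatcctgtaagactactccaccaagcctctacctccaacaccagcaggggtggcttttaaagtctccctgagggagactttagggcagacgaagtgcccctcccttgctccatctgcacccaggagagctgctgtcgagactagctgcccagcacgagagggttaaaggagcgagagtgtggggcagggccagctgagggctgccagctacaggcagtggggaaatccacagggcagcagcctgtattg

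The binding protein genes moved in different ways. Igfbp1, an acutely regulated gene that insulin represses in liver, passed in no comparison. Across each group, from its lowest through its median to its highest library, Igfbp1 stood at 433.5, 847 and 970 CPM in LPS, 300.1, 976 and 1566 CPM in Selfox and 257, 763.5 and 1769 CPM in Control. The groups overlapped widely, and Control held both the lowest and the highest library. The log2 fold changes were -0.32 ± 0.36 between LPS and Control (adjusted p = 0.600), 0.01 ± 0.33 between Selfox and Control (adjusted p = 0.985) and 0.33 ± 0.32 between Selfox and LPS (adjusted p = 0.546). Within LPS, the 3 late-clock libraries lay at 433.5 to 648 CPM and the other 4 at 847 to 970 CPM, and the lowest Control library, Control 55, was also a late-clock one. With group means removed, Igfbp1 and the clock difference (log2 CPM of Dbp minus that of Arntl) had r -0.41 (permutation p = 0.0321, adjusted p = 0.228). Spearman's rho was -0.20 (permutation p = 0.347, adjusted p = 0.612). Without LPS 6 and Control 55, r was -0.08. The hour of sampling is not given, so its part in these levels was not tested.

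Igfbp3 carries most Igf1 in blood as part of the large complex, and in rat liver it is known to be made by non-parenchymal cells, mainly Kupffer and endothelial cells, rather than by hepatocytes. Lowest, median and highest Igfbp3 levels were 69.6, 77.9 and 131 CPM in LPS, 36.5, 52.5 and 62.5 CPM in Selfox and 50.1, 69.2 and 81.8 CPM in Control. Every Selfox library lay below every LPS library; 1.74% of all genes tested had Selfox and LPS groups that did not overlap, 0.743% with Selfox higher and 1.00% with Selfox lower. Igfbp3 fell in Selfox to 0.598 of its LPS level (log2 fold change -0.74 ± 0.13, adjusted p = 0.000395), and it kept the call in all 17 fits that left out a library and under 12 other settings, with adjusted p up to 0.00410. It fell in Selfox to 0.783 of Control (-0.35 ± 0.13, adjusted p = 0.0466), with 3 of 10 libraries below every Control library, and that call was lost in 11 of 16 fits that left out a library. LPS with Control gave 0.39 ± 0.14, which did not pass (adjusted p = 0.0712) but passed without LPS 3.

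Kupffer cell markers fell alongside Igfbp3 in Selfox. Among all genes, 14.9% were called lower in Selfox with Control, and 7.64% were called lower and 6.86% higher in Selfox with LPS. All 11 Kupffer cell markers tested fell in Selfox relative to LPS and relative to Control, with a summed level of 681 to 1051 CPM in LPS, 285 to 445 CPM in Selfox and 788 to 1071 CPM in Control. The summed level of 9 sinusoidal endothelial markers was 213 to 445 CPM in LPS, 402.5 to 520.2 CPM in Selfox and 392 to 477.5 CPM in Control, and 2 of the 9 rose in Selfox over LPS. That of 10 stellate cell and fibroblast markers was 413 to 666 CPM in LPS, 308 to 626 CPM in Selfox and 344 to 522 CPM in Control, and in Selfox with LPS 1 of the 10 rose and 2 fell. The part of these cells in the Igfbp3 result was not tested. In whole liver, fewer cells of a type and less RNA per cell cannot be told apart.

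Igfbp1 and Igfbp3 are neighbours on chromosome 14, with 0 annotated genes between them in RefSeq, and they are transcribed from opposite strands. Their start regions are shown to set these neighbours side by side, since Igfbp3 differed between the models and Igfbp1 did not pass in any comparison. Capitals again mark CAAAACA, which starts at base -121 of Igfbp1 and is not in the Igfbp3 window. Igfbp1 is chr14:86261027-86261326 on the plus strand, and Igfbp3 is chr14:86277895-86278194 on the minus strand.
Igfbp1: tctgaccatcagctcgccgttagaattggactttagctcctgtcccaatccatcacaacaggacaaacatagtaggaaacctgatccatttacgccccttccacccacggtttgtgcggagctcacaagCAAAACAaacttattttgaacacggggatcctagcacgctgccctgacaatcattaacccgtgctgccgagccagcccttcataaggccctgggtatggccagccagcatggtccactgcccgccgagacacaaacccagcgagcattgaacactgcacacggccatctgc
Igfbp3: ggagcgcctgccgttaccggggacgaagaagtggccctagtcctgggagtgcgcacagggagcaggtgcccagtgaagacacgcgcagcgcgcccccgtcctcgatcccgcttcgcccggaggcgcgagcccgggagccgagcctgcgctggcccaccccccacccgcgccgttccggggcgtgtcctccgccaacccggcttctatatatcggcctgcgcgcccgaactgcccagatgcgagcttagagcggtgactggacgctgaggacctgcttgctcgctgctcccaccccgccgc

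Igfbp2, a binding protein that rises in liver in fasting and with low growth hormone, was lower in Selfox than in LPS. Levels of Igfbp2, lowest, median and highest, were 3.70, 5.67 and 11.95 CPM in LPS, 0.975, 1.935 and 3.86 CPM in Selfox and 0.951, 3.07 and 8.07 CPM in Control. In Selfox 9 of 10 libraries were below every LPS library, while Control overlapped both models, with Control 41, Control 46 and Control 55 between 0.951 and 1.505 CPM and the other 3 between 4.64 and 8.07 CPM. Igfbp2 fell in Selfox to 0.309 of its LPS level (log2 fold change -1.69 ± 0.37, adjusted p = 0.00405). When the late-clock libraries were left out, it was -1.36 (adjusted p = 0.0586). Selfox with Control gave -0.94 ± 0.40, which did not pass (adjusted p = 0.0776) but passed without Selfox 10, Control 41, Control 46 or Control 55. LPS with Control gave 0.75 ± 0.43 (adjusted p = 0.257).

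Igfbp4, a binding protein that holds back IGF action, was lower in Selfox than in Control by a small margin. Igfbp4 ranged, with lowest, median and highest given in turn, over 891.5, 978 and 1123 CPM in LPS, 788, 869 and 1107 CPM in Selfox and 943, 1029 and 1263 CPM in Control. In Selfox 7 of 10 libraries were below every Control library. Igfbp4 fell in Selfox to 0.852 of Control (log2 fold change -0.23 ± 0.09, adjusted p = 0.0451), a call lost in 12 of 16 fits that left out a library. LPS with Control gave -0.11 ± 0.09 (adjusted p = 0.471), and Selfox with LPS gave -0.12 ± 0.08 (adjusted p = 0.346).

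**Figure D2:**
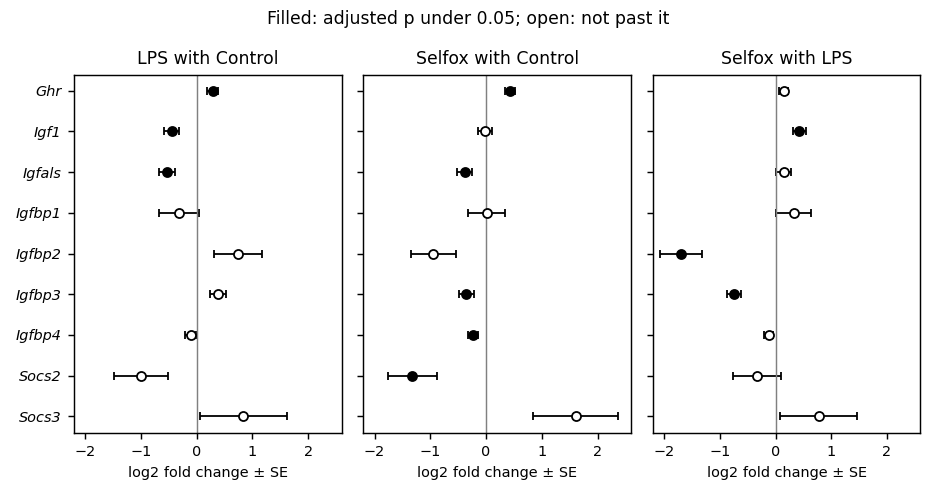
Log2 fold change of each member in LPS against Control, Selfox against Control and Selfox against LPS; points are estimates, bars are 1 SE, and filled points passed the test. Filled points in Selfox with LPS are Igf1 at 0.42, Igfbp2 at -1.69 and Igfbp3 at -0.74.

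Socs2, a growth hormone target that restrains the receptor, was lower in Selfox than in Control. Socs2 stood, at its lowest, median and highest, at 6.68, 57.4 and 124 CPM in LPS, 17.4, 44.8 and 97.0 CPM in Selfox and 62.4, 141 and 191 CPM in Control. In Selfox 8 of 10 libraries were below every Control library, and in LPS 4 of 7 were. Socs2 fell in Selfox to 0.400 of Control (log2 fold change -1.32 ± 0.44, adjusted p = 0.0286), and the call was lost without Control 46, Control 49 or Control 52. LPS with Control gave -0.99 ± 0.49, which did not pass (adjusted p = 0.179). In LPS the 3 late-clock libraries lay between 6.68 and 57.4 CPM and the other 4 between 43.4 and 124 CPM. Selfox with LPS gave -0.33 ± 0.43 (adjusted p = 0.670).

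Socs3, a feedback inhibitor induced by the interleukin-6 family through Stat3 and also by growth hormone, passed in no comparison. Lowest, median and highest Socs3 levels were 6.07, 18.8 and 31.3 CPM in LPS, 2.87, 11.85 and 110.9 CPM in Selfox and 4.535, 8.46 and 26.1 CPM in Control. The log2 fold changes were 0.84 ± 0.78 for LPS with Control (adjusted p = 0.514), 1.61 ± 0.76 in the comparison of Selfox and Control (adjusted p = 0.118) and 0.77 ± 0.69 in that of Selfox and LPS (adjusted p = 0.502). Selfox libraries separated for this gene: Selfox 3, Selfox 4, Selfox 5 and Selfox 8 lay between 55.8 and 110.9 CPM, above every Control library, and the other 6 between 2.87 and 13.5 CPM, with 3 of them below every Control library. In those 4 libraries Cish, a SOCS relative and Stat5 target, was at 66.9 to 112.5 CPM, against 4.56 to 39.5 CPM in the other 6 Selfox libraries. Cebpd, an acute phase transcription factor, was at 24.4 to 43.2 CPM against 3.69 to 9.89 CPM, and Rnd1, a small GTPase, at 58.9 to 150.7 CPM against 1.38 to 10.3 CPM. Il6 overlapped between the 4 and the 6 (3.315 to 9.39 CPM against 0.175 to 5.815 CPM), and so did Socs2 (37.2 to 48.3 CPM against 17.4 to 97.0 CPM). The neutrophil marker S100a8 was at 7.23 to 27.15 CPM against 0.669 to 7.36 CPM, and the part of neutrophils in the Socs3 levels was not tested. No test was made of these 4 libraries, since they were picked by their Socs3 level. Rnd1 and Cebpd were named because they were among the genes most like Socs3 over these same libraries. Their separation is therefore no independent support.

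**Figure D3:**
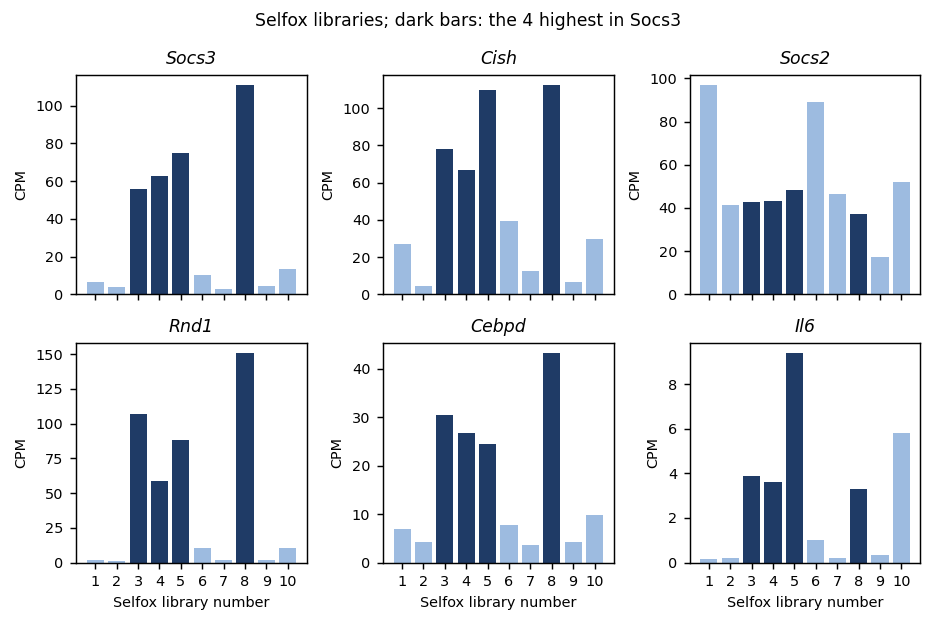
Level of Socs3, Cish, Socs2, Rnd1, Cebpd and Il6 in each of the 10 Selfox libraries, as bars in CPM from 0 on linear axes; dark bars are Selfox 3, Selfox 4, Selfox 5 and Selfox 8, the 4 highest in Socs3. Dark and light bars do not overlap for Socs3, by which they were picked, nor for Cish, Rnd1 and Cebpd, whereas they do for Socs2 and Il6. Rnd1 and Cebpd were themselves chosen for their likeness to Socs3 in these libraries.

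Genes that carry the growth hormone signal passed at shares close to or below those of all genes tested. Of 12 genes of receptor signalling tested, 0 passed in LPS with Control (14.7% of all genes did), where Ptpn11, the phosphatase Shp2, had the lowest adjusted p (-0.18 ± 0.08, adjusted p = 0.120). By edgeR 1 of the 12 was under 0.05 before adjustment, and DESeq2 called 0 and limma voom 1, Ptpn11. In Selfox with Control 2 of 12 fell and 0 rose, where 29.1% of all genes passed. Sh2b1, an adaptor that enhances Jak2, averaged 18.2 ± 1.54 CPM in Selfox (SD, n = 10) and 23.1 ± 1.26 CPM in Control (SD, n = 6), and all 10 Selfox libraries were below every Control library (log2 fold change -0.34 ± 0.07, adjusted p = 0.000816). Of all genes tested, 4.91% had Selfox and Control groups that did not overlap, 2.37% with Selfox higher and 2.55% with Selfox lower. Shc1, an adaptor to the Ras pathway, fell by 0.27 ± 0.10 on the log2 scale (adjusted p = 0.0374), a call lost in 8 of 16 fits that left out a library. In Selfox with LPS the same genes, Sh2b1 (-0.24 ± 0.07, adjusted p = 0.0173) and Shc1 (-0.29 ± 0.09, adjusted p = 0.0309), were the 2 of 12 that fell, where 14.5% of all genes passed. Without the late-clock libraries neither call held (Sh2b1 -0.12, adjusted p = 0.340, and Shc1 -0.31, adjusted p = 0.0517). With all libraries, Jak2, Stat5a and Stat5b passed in no comparison, but without the late-clock libraries Stat5b was higher in LPS than in Control (0.37, adjusted p = 0.04865) and in Selfox than in Control (0.27, adjusted p = 0.04995), and Ptpn11 was lower in Selfox than in Control (-0.27, adjusted p = 0.00236).

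Among IGF ligands, receptors, other binding proteins and proteases, 12 of 14 listed genes were tested. Insr, the insulin receptor, was higher in both models. It averaged 97.9 ± 8.09 CPM in LPS (SD, n = 7), 91.3 ± 5.403 CPM in Selfox (SD, n = 10) and 73.7 ± 3.29 CPM in Control (SD, n = 6). All 7 LPS and all 10 Selfox libraries were above every Control library, with log2 fold changes of 0.41 ± 0.06 in LPS (adjusted p = 0.000217) and 0.31 ± 0.06 in Selfox (adjusted p = 0.000310). LPS and Control did not overlap in 3.64% of all genes (1.83% with LPS higher), and Selfox and Control in 4.91% (2.37% with Selfox higher). Insr was the 1 gene of the list that passed in LPS with Control, where 14.7% of all genes did. In Selfox with Control, 14.2% of all genes were called higher and 14.9% lower. Between Selfox and Control 2 rose and 2 fell: besides Insr, Igfbp7, which binds IGF weakly, rose by 0.30 ± 0.10 (adjusted p = 0.0251; 0.22, adjusted p = 0.0649, without the late-clock libraries), Htra1, a secreted protease that cuts IGF binding proteins, fell by 0.33 ± 0.07 (adjusted p = 0.000997), and Igf2, a fetal ligand with under 1.2 CPM in every library, fell by 0.73 ± 0.25 (adjusted p = 0.0319). Htra1 was also the 1 gene that fell in Selfox with LPS (-0.24 ± 0.07, adjusted p = 0.0152), where 7.64% of all genes were called lower. That call was lost over the 14 LPS and Selfox libraries numbered 1 to 7, with or without the replicate number as a block (adjusted p up to 0.154). The Igf2 call in Selfox with Control was lost in 5 of 16 fits that left out a library.

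Genes whose level follows the pattern of growth hormone pulses were read next. Between LPS and Control, 14.7% of all genes tested passed, and 1 of 6 male-pattern genes did. The share of all genes was 29.1% when Selfox was set against Control, where again 1 of 6 passed. Selfox against LPS gave 14.5% of all genes and 1 of the 6. Whether this list or the female-pattern list below differs from these shares was not tested. Of the 6 male-pattern genes, Mup4, a major urinary protein, fell in LPS. It averaged 593 ± 168 CPM in LPS (SD, n = 7), 879 ± 117 CPM in Selfox (SD, n = 10) and 992.5 ± 231 CPM in Control (SD, n = 6). The log2 fold change was -0.74 ± 0.18 for LPS with Control (adjusted p = 0.00656), with 6 of 7 LPS libraries below every Control library, and Mup4 was higher in Selfox than in LPS by 0.57 ± 0.16 (adjusted p = 0.0166). The Mup4 call in Selfox with LPS was lost over the 14 libraries of these groups numbered 1 to 7, with or without the replicate number as a block (adjusted p up to 0.06915). Mup genes are a family of near-identical copies, so the split of reads among them is uncertain. Cyp2c11, the male-specific cytochrome P450, averaged 3103 ± 688 CPM in Selfox (SD, n = 10) and 1617 ± 943 CPM in Control (SD, n = 6), and rose by 0.94 ± 0.24 (adjusted p = 0.00521), although only 2 of 10 Selfox libraries were above every Control library. In Selfox with LPS, Cyp2c11 did not pass with all libraries (0.59, adjusted p = 0.0784). It was called higher there under 7 of 12 other settings, among them without the late-clock libraries (0.60, adjusted p = 0.0258). In LPS with Control, limma voom called Cyp2c11, which edgeR did not. Without the late-clock libraries, Cyp2c13, another P450, was higher in LPS than in Control (0.52, adjusted p = 0.0105). Of 7 female-pattern genes, 0 passed in any comparison with edgeR, beside the shares of all genes given above, and 0 were under 0.05 before adjustment. DESeq2 called 0, and limma voom called 1, Cux2 between Selfox and Control. The count of 0 in that comparison rested on Selfox 5, without which Cux2 (-2.41, adjusted p = 0.0372) and Trim24 (-1.24, adjusted p = 0.0135) passed. The lowest adjusted p-values among them were 0.417 for A1bg between LPS and Control, 0.219 for Cux2 between Selfox and Control and 0.204 for Cyp2c12 between Selfox and LPS.

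Lif and Il6, cytokines of the interleukin-6 family, which drives Socs3, were higher in Selfox. Of 12 genes of these cytokines, their receptors and Stat3 signalling, Jak1 rose in LPS (0.21 ± 0.06, adjusted p = 0.0322) and Osm, the cytokine oncostatin M, fell (-1.16 ± 0.38, adjusted p = 0.0433). Of all genes tested, 7.71% were called higher and 6.99% lower in LPS with Control. These shares were 14.2% and 14.9% in Selfox with Control, where 2 of the 12 rose and 0 fell. In Selfox with LPS they were 6.86% and 7.64%, where 3 rose and 1 fell. The Jak1 call was lost in 7 and the Osm call in 9 of 13 fits that left out a library, and without the late-clock libraries Osm was at -1.13 (adjusted p = 0.158). In Selfox over Control, Lif rose by 4.30 ± 0.87 on the log2 scale (adjusted p = 0.000889) and Il6 by 3.06 ± 0.97 (adjusted p = 0.0217), and the Il6 call was lost without Control 49 (adjusted p = 0.0504), with limma voom (adjusted p = 0.152) and with the late-clock libraries left out (2.75, adjusted p = 0.0659). Il6 averaged 2.79 ± 3.06 CPM in Selfox (SD, n = 10) and 0.330 ± 0.396 CPM in Control (SD, n = 6). Lif averaged 1.32 ± 1.23 CPM in Selfox (SD, n = 10). Its mean was near the floor elsewhere, at 0.0588 CPM in Control and 0.0583 CPM in LPS. The 5 neutrophil markers also rose in Selfox with Control, with a summed level of 4.90 to 118.5 CPM in Selfox and 4.06 to 11.8 CPM in Control, and their part in the cytokine result was not tested. In Selfox with LPS, Lif (4.47 ± 0.76, adjusted p = 0.000473), Il6 (5.51 ± 1.07, adjusted p = 0.00160) and Osm (1.397 ± 0.34, adjusted p = 0.00774) rose, and Il22ra1, a receptor subunit for interleukin-22, fell (-1.397 ± 0.45, adjusted p = 0.0380). Il6 lost that call with limma voom (adjusted p = 0.0802). Osm lost it with limma voom, with the replicate block and without the late-clock libraries (1.27, adjusted p = 0.0960, and up to 0.141 over these settings). Il22ra1 lost it in 8 of 17 fits that left out a library. Both genes had low levels. Mean Osm was 0.450 CPM in LPS, 1.19 CPM in Selfox and 1.01 CPM in Control. Mean Il22ra1 was 0.249 CPM in LPS and 0.0930 CPM in Selfox.

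Of 11 acute phase genes downstream of Stat3 tested, 5 were higher in LPS than in Control and 6 did not pass, where 7.71% of all genes were called higher. Hp, haptoglobin, averaged 12490 ± 2247 CPM in LPS (SD, n = 7) and 8445 ± 1712 CPM in Control (SD, n = 6), with a log2 fold change of 0.57 ± 0.15 (adjusted p = 0.0151). Lcn2, an iron-sequestering protein, rose by 4.58 ± 1.30 (adjusted p = 0.0222), Itih4 by 0.43 ± 0.13 (adjusted p = 0.0292), Fgl1 by 0.60 ± 0.18 (adjusted p = 0.0311) and Orm1 by 1.00 ± 0.34 (adjusted p = 0.0482). Lcn2 rested on LPS 5, without which its log2 fold change was 2.22 (adjusted p up to 0.130 over the fits without a library). Orm1 in LPS with Control was not followed over the repeated fits. The calls of the other 4 did not hold without the late-clock libraries. Those were Hp (0.48, adjusted p = 0.0808), Lcn2 (2.19, adjusted p = 0.1503), Itih4 (0.20, adjusted p = 0.258) and Fgl1 (0.31, adjusted p = 0.353). In Selfox with Control 1 of 11 passed, where 29.1% of all genes did: Orm1 was higher by 1.15 ± 0.32 (adjusted p = 0.00985). In Selfox with LPS 1 of 11 passed, where 14.5% of all genes did: Fgl1 was lower (log2 fold change -0.58 ± 0.16, adjusted p = 0.0158). The Fgl1 call was lost without LPS 7 and under 5 of 12 other settings (-0.33, adjusted p = 0.280, without the late-clock libraries).

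Genes that answer to insulin and FoxO factors moved in both directions. Among all genes, 7.71% were called higher and 6.99% lower in LPS with Control. The shares were 14.2% and 14.9% in Selfox with Control, and 6.86% and 7.64% in Selfox with LPS. Of 11 genes of this list tested, Sesn1 (0.62 ± 0.17, adjusted p = 0.0152) and G6pc (0.63 ± 0.21, adjusted p = 0.0469) rose in LPS over Control. The G6pc call was lost in 12 of 13 fits without a library. In Selfox relative to Control, Trib3, a pseudokinase, fell by 1.52 ± 0.27 on the log2 scale (adjusted p = 0.000328) and Foxo1, named after its values were seen, by 0.33 ± 0.12 (adjusted p = 0.0433). Sesn1, a stress-induced regulator of mTOR signalling, rose by 0.82 ± 0.16 (adjusted p = 0.000566), and G6pc, which releases glucose, by 0.73 ± 0.20 (adjusted p = 0.00774). In Selfox with LPS, Pik3r1 (-0.68 ± 0.16, adjusted p = 0.00707), Trib3 (-0.99 ± 0.26, adjusted p = 0.0134) and Foxo3 (-0.59 ± 0.18, adjusted p = 0.0280) fell and 0 genes of the list rose. The Foxo3 call was lost without LPS 1, LPS 2 or LPS 6, with adjusted p up to 0.0834, and with the clock covariate (adjusted p = 0.0542). Of 10 genes of the integrated stress response, 0 passed between LPS and Control by edgeR (2 under 0.05 before adjustment, 1 by DESeq2 and 0 by limma voom; lowest adjusted p 0.0543, Ddit3), 2 fell in Selfox relative to Control (Trib3 and Asns) and 4 fell in Selfox relative to LPS (Atf4, Fgf21, Trib3 and Ddit3). Fgf21, a hormone that lowers hepatic growth hormone signalling in mouse, had a log2 fold change of -1.74 ± 0.41 in Selfox with LPS (adjusted p = 0.00606). All 10 Selfox libraries were below every LPS library for Fgf21. These groups did not overlap in 1.74% of all genes, 1.00% with Selfox lower. In Selfox with LPS, the Fgf21, Atf4, Trib3 and Pik3r1 calls were lost with the replicate block (adjusted p = 0.0572 for Pik3r1). The Asns call was lost in 11 of 16 fits that left out a library (-0.48 without Control 46, adjusted p = 0.312) and with the late-clock libraries left out (-1.12, adjusted p = 0.0733). In Selfox with LPS, the Ddit3 call was lost in 11 of 17 such fits and under 7 of 12 other settings (-0.26, adjusted p = 0.361, without the late-clock libraries), and Trib3 was at -0.71 without the late-clock libraries (adjusted p = 0.209).

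Members were next compared with each other library by library, after the group means were removed, over all 36 pairs and 23 libraries. Igf1 and Igfals followed each other: Pearson's r was 0.84 (permutation p = 2.00e-05, adjusted p = 0.00072) and Spearman's rho was 0.83 (permutation p = 1.00e-05, the smallest the 100000 permutations can give, adjusted p = 0.00036). The relation held within LPS (r 0.93), Selfox (r 0.84) and Control (r 0.67), and r was 0.79 without LPS 7 and LPS 3, the libraries farthest from the median of Igf1. Ghr and Igfbp3 ran opposite, with r -0.66 (permutation p = 0.00118, adjusted p = 0.0212) and rho -0.62 (permutation p = 0.00352, adjusted p = 0.0634), so the rank measure did not pass, and r was -0.47 without Control 55 and Selfox 6. No other pair passed by either measure.

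**Figure D4:**
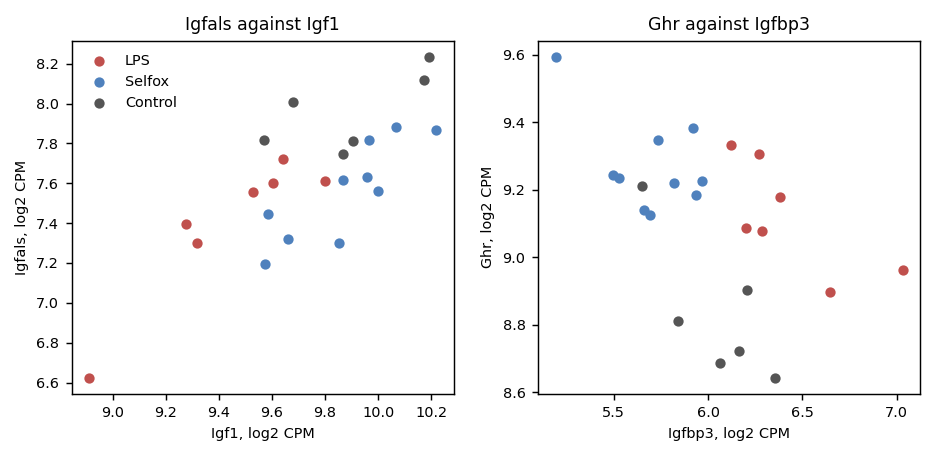
Library by library levels of Igf1 with Igfals and of Ghr with Igfbp3, as log2 CPM, with LPS, Selfox and Control in separate colours. Group means are not removed in the panels. After their removal, Igf1 and Igfals rise together (r 0.84), and Ghr and Igfbp3 run opposite (r -0.66).

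**Figure D5:**
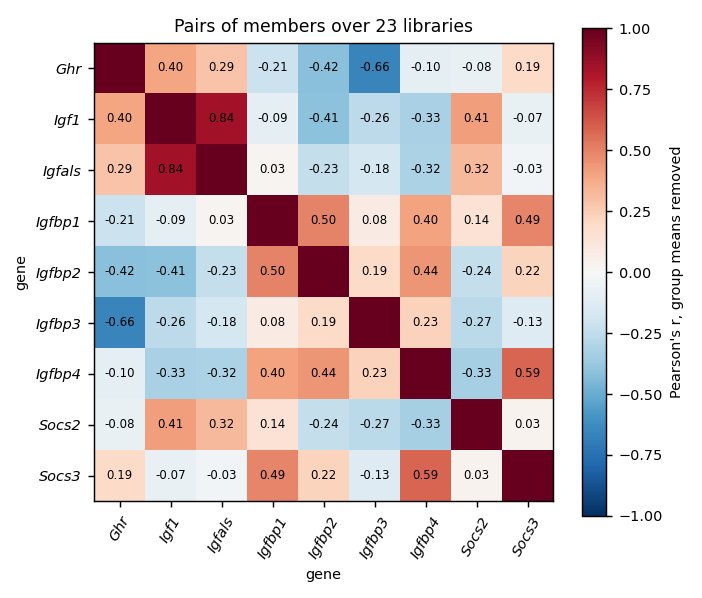
Pearson's r of all 36 pairs of members over the 23 libraries, on log2 CPM with the group means removed, on a colour scale. Igf1 with Igfals has r 0.84 and Ghr with Igfbp3 r -0.66.

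The 3 genes most like each member were taken by Pearson's r over the same 23 libraries with group means removed, as a description. Igf1 was most like Igfals (r 0.84), Selenop, the selenium carrier of plasma (r 0.79), and Dpp4, a peptidase (r 0.76). Igfals was most like Igf1, Ptprd (r 0.77) and L3hypdh (r 0.76). Igfbp1 was most like Btg2 (r 0.85), Pnrc1 (r 0.81) and Il1rn, the interleukin-1 receptor antagonist (r 0.81). Igfbp2 was most like Kyat1 (r 0.76), Upp2 (r 0.73) and Lrch1 (r 0.73). Socs2 was most like Syce1l (r 0.81), Il6st, the shared receptor subunit gp130 (r 0.79), and Mon1b (r 0.79). Socs3 was most like Rnd1 (r 0.95), Cebpd (r 0.94) and Arid5a (r 0.94); within LPS, Selfox and Control alone, r with Rnd1 was 0.84, 0.98 and 0.83.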

How the data were processed

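RNA-seq of liver was available for 7 LPS, 10 Selfox and 6 Control libraries, made with a stranded mRNA kit per the labels' protocols. The authors deposited a table of raw counts per gene; the submitters' processing notes name FastQC, Trim Galore, STAR 2.7.9a and featureCounts of Subread 2.0.3. For the genome build, the annotation and the strand setting, the sources used here state nothing, so genes that overlap others are uncertain. Even numbers made up 66.1% to 74.9% of counts from 1 to 9, so an alternative fit divided all counts by 2. The filterByExpr function with a minimum count of 10 left 15079 genes of 21753 with any count.

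Counts were scaled by TMM, and all 3 groups were fitted together by edgeR's quasi-likelihood method (biological coefficient of variation 0.235), with p-values adjusted by Benjamini-Hochberg and called under 0.05. Each SE is the size of a log2 fold change over the root of its F value. CPM used TMM-scaled library sizes, and log2 CPM a prior count of 2. Pairs of members were tested by 100000 permutations of libraries within groups, two-sided. The fit was tested on simulated data. Versions were edgeR 4.0.16, DESeq2 1.42.0 and limma 3.58.1, in R 4.3.3.

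All 9 members are named, with up to 4 genes of each other list by adjusted p in each comparison (1 where none passed), the 3 genes most like a member, and marker genes beside results. Some genes, among them Orm1 in LPS with Control and Foxo1, were named beyond this limit. Members and lists were chosen with earlier results of these data known. Genes of the lists without a row or below the filter were not analysed here. Of the insulin and FoxO list, 1 gene is not reported here.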

Additional observations from a re-analysis of the deposited data

Results flagged for a closer look

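Igfals in LPS 7 was at 6.63 log2 CPM (98.7 CPM), whereas the other 6 LPS libraries lay between 7.30 and 7.72 log2 CPM; the gap to the nearest library was 0.616 of the whole range of the group. It was the 1 value that stood apart among 27 combinations of member and group looked at, and chance flags about 1 in 20 groups. Without LPS 7, Igfals in LPS with Control was at -0.43 on the log2 scale and still passed.

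The models differed from each other for Igf1 (log2 fold change 0.42 for Selfox with LPS), Igfbp2 (-1.69) and Igfbp3 (-0.74), by edgeR's quasi-likelihood test of that difference. LPS and Selfox were set against the same Control libraries, so the test of Selfox with LPS is the test of the difference between the effects.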

How the results depend on the processing

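Each result was recomputed, apart from Orm1 in LPS with Control and Foxo1 in Selfox with Control. Settings were RLE or upper-quartile factors, no filter or a stricter minimum count of 50, DESeq2, limma voom and counts divided by 2. Further fits took the 2 groups alone, left out the late-clock libraries, added a clock covariate or left out each library in turn. In LPS with Control, 189 of 207 member values kept their direction and side of the threshold, 17 fell short of it and 1 passed it. In Selfox with Control these were 176, 39 and 4 of 234, with 15 reversed, and in Selfox with LPS 254, 4 and 0 of 261, with 3 reversed. Members called in LPS with Control numbered 1 to 3 over the fits without a library (1 without Control 41 or Control 46), and genes called 1409 (without Control 49) to 2723 (without Control 55). Members called in Selfox with Control numbered 2 with no filter, 3 with counts divided by 2, 3 with the clock covariate and 1 (without Control 49) to 6 (without Control 55) over the fits without a library. Without the late-clock libraries, Selfox with LPS had 1434 genes and 1 member called, Igfbp3. Values that reversed were near 0 or failed the test: Igfbp1 in Selfox with Control was -0.23 without the late-clock libraries, -0.0463 with the clock covariate and -0.19 to 0.29 without a library, and Igf1 there was -0.0867 to 0.0447 without a library. In Selfox with LPS, Socs3 was -0.43 with limma voom, Lcn2 was 0.47 with DESeq2 and -2.40 to 0.38 without a library, and Cux2 was -1.68 to 0.46 without a library. The cause was not tested.

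LPS and Selfox share the replicate numbers 1 to 7. Same-numbered libraries deviated from their group means with r from -0.07 to 0.28, over 0.1 in 1 of 7 pairs. Only 1 LPS and 1 Selfox library correlated best with their own number. Such weak correlation cannot exclude a shared litter, day or batch. No label says what the numbers mark, so whether they pair the libraries is unknown. With the replicate block, 1259 genes and 2 members (Igfbp2 and Igfbp3) passed, against 1617 genes and 2 members in the same 14 libraries without it, and Igf1 was 0.41 (adjusted p = 0.148), Socs2 0.23 and Socs3 -0.12. Control libraries were shallower than those of both models, and a p that misses the threshold does not show that groups are alike.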

Other observations

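The clock difference (log2 CPM of Dbp minus that of Arntl) and the summed marker levels of 3 cell types were related to each of the 9 members over the 23 libraries with group means removed, 36 relations in all, chosen after the data had been seen. None passed by both Pearson's r and Spearman's rho after Benjamini-Hochberg adjustment. The lowest permutation p of r was that of Ghr and the stellate cell and fibroblast sum (r -0.56, permutation p = 0.00921, adjusted p = 0.215). Their rho was -0.47 (permutation p = 0.0354, adjusted p = 0.27). For Igfbp3 and the same sum, r was 0.54 (permutation p = 0.0119, adjusted p = 0.215) and rho 0.53 (permutation p = 0.0153, adjusted p = 0.27), and r was 0.35 without Selfox 6 and Selfox 9. In LPS the median of this sum was 493 CPM and that of the collagen gene Col3a1 within it 275 CPM. For Igfbp3 and the Kupffer cell sum, r was 0.33 (permutation p = 0.15, adjusted p = 0.489). For Socs2 and the clock difference, r was -0.50 (permutation p = 0.0664, adjusted p = 0.299) and rho was -0.59 (permutation p = 0.0111, adjusted p = 0.27).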
